A study of Mus musculus with 95 samples.

Results

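Mouse embryonic stem cells without PCGF6 were compared with the wild-type line they were made from, by sequencing poly-A RNA and counting reads over every gene. The comparison uses 4 of the 14 RNA libraries and of the 95 samples of all kinds in the series, namely 2 Pcgf6-/- and 2 wild-type libraries, and every gene that passed a filter on low counts (15871 genes) is part of it. The wild-type is the E14 line. Pcgf6-/- cells were made from it by transfecting plasmids that carry Cas9 and guide RNAs and then isolating clones, and both Pcgf6-/- columns carry the number of 1 clone. All cells grew without feeders on gelatin, in GMEM with fetal bovine serum, LIF and inhibitors of GSK3β (CHIR99021) and of MEK1/2 (PD0325901). These inhibitors act on Wnt and ERK signalling and were present in both groups. A difference between a clone and its parent line that has nothing to do with Pcgf6 cannot be told apart from the effect of the genotype here. The labels do not say that the libraries came from separate cultures, so p-values measure the spread between these libraries, which may be technical. In bulk RNA, fewer cells expressing a gene and less RNA per cell cannot be told apart.

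PCGF6 is the subunit that sets apart one variant form of Polycomb repressive complex 1, often called PRC1.6. This complex holds RING1A or RING1B, which attach ubiquitin to histone H2A, together with the DNA-binding proteins MGA and MAX, which recognise the E-box, and E2F6 with a DP partner, which recognises E2F sites. L3MBTL2, the HP1 proteins CBX1 and CBX3, and the deacetylases HDAC1 and HDAC2 also belong to it. In embryonic stem cells the complex is best known for holding genes of germ cells and meiosis silent.

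The knockout was visible in the RNA. Pcgf6 (chr19:47108109-47125380, minus strand, NCBIM37) was read at 36.2 and 34.3 CPM (counts scaled to a library of 1000000 counts) in the wild-type libraries and at 0 and 0 CPM in the Pcgf6-/- libraries, which is 498 counts against 0. Its level was at least 171-fold lower, with the fold taken against a floor of 3 counts over both knockout libraries (edgeR quasi-likelihood test, Benjamini-Hochberg adjusted p = 1.43e-08). The libraries held between 6292628 and 7494996 counts. Genes with at least 1 count numbered 16475 and 16305 in wild-type and 18179 and 17942 in Pcgf6-/- libraries. The wild-type libraries differed by less than sampling noise (chi-square over its degrees of freedom of 0.957) and were counted as 1 sample in the test. The same value for the Pcgf6-/- libraries was 1.882. The other 5 knockout lines entered the fit to estimate the spread between libraries, and they also took part in the filter and the scaling. A gene could therefore be tested because it was high in another knockout line. With only the 4 libraries, and wild-type as 2 samples, 14740 genes were tested, of which 2940 rose and 1059 fell. Counts were compressed at the top: the 99th percentile over genes was 1.01 counts per base of exon in a wild-type library, and the 10 most counted genes held 0.647% of its counts, so changes of the most abundant RNAs may be understated; their part in the results was not tested.

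The cells carried the markers of their labelled type. The 7 embryonic stem cell markers, among them Pou5f1, Nanog and Sox2, summed to 1400 and 1410 CPM in wild-type and to 1340 and 1500 CPM in Pcgf6-/- libraries, and 0 of the 7 changed. Markers of feeder fibroblasts summed to 43.6 to 47.3 CPM in wild-type and to 43.6 to 46.9 CPM in Pcgf6-/- libraries, with 2 raised and 1 lowered of 5 tested. Dcn and Twist2 were at 0 in Pcgf6-/- cells, and 4 of these markers were at 0 in wild-type. Blood cell markers lay between 49.9 and 57.1 CPM in all 4 libraries, with 1 raised and 1 lowered of 3 tested. Ptprc was at 0 in Pcgf6-/- cells, and 2 blood cell markers were at 0 in wild-type. Markers of some other embryonic lineages moved. Primitive endoderm markers summed to 8.55 and 7.03 CPM in wild-type and to 39.4 and 38.9 CPM in Pcgf6-/- libraries, with 3 raised and 0 lowered of 6 tested. Mesendoderm markers summed to 44.5 and 37.8 against 6.71 and 5.97 CPM, with 1 raised and 2 lowered of 5 tested. Most of that fall was the gene T, at 36.2 and 29.9 CPM in wild-type and 0.621 and 1.22 CPM in Pcgf6-/- libraries. Trophoblast markers lay between 105 and 120 CPM in all 4 libraries, but 3 rose and 1 fell of 6 tested. Tpbpa was at 0 in Pcgf6-/- cells, and 1 trophoblast marker was at 0 in wild-type. Neural markers summed to 82.8 and 84.9 against 68.6 and 60 CPM, with 0 raised and 0 lowered of 2 tested. Sox1 and Neurog2 were at 0 in Pcgf6-/- cells, and 1 neural marker was at 0 in wild-type. Meiotic germ cell markers summed to 66.2 and 65.4 CPM in wild-type and to 561 and 602 CPM in Pcgf6-/- libraries. Spermatid markers summed to 0.143 and 0.141 against 6.59 and 5.05 CPM, with 1 marker tested, which rose. Prm1, Tnp2 and Acrv1 were at 0 in Pcgf6-/- cells, and 4 of the 5 spermatid markers were at 0 in wild-type.

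Loss of Pcgf6 was followed by more gains than losses of RNA. Of 15871 genes tested, 3126 (19.7%) rose and 1105 (6.96%) fell, where a gene counts as changed with an adjusted p below 0.05 and a log2 fold change of at least 1 in size. Of the changed genes 73.9% rose. The gains were also larger: the median log2 fold change was 2.73 among raised and -1.55 among lowered genes, and 1422 genes rose by 3 or more on the log2 scale while 150 fell by as much. The median over all genes was 0.03. Both Pcgf6-/- libraries lay beyond both wild-type libraries for each of the 4231 changed genes.

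The raised genes were mostly genes that wild-type cells hardly expressed. Of the raised genes 50.8% had less than 1 CPM in wild-type cells, against 2.99% of the lowered and 14.7% of all tested genes, and 586 raised genes had no count in either wild-type library. Among genes at less than 1 CPM in wild-type cells 68% rose. This share fell to 37.8% at 1 to 4 CPM, 22.1% at 4 to 16 CPM, 5.16% at 16 to 64 CPM and 0.354% above that. A gene near 0 in wild-type cells passed the filter only through a library in which it was higher, so the first of these shares had to be high. The lowered share was largest in the middle, at 11.9% for 4 to 16 CPM. Offsets that follow the level of expression, which take out any trend of the fold change with level, left 1906 raised and 1798 lowered genes, so 51.5% of changed genes rose under that scaling. The 2 scalings cannot be told apart from these libraries, and values under both are given where the choice turns the direction of a group described here.

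**Figure D1:**
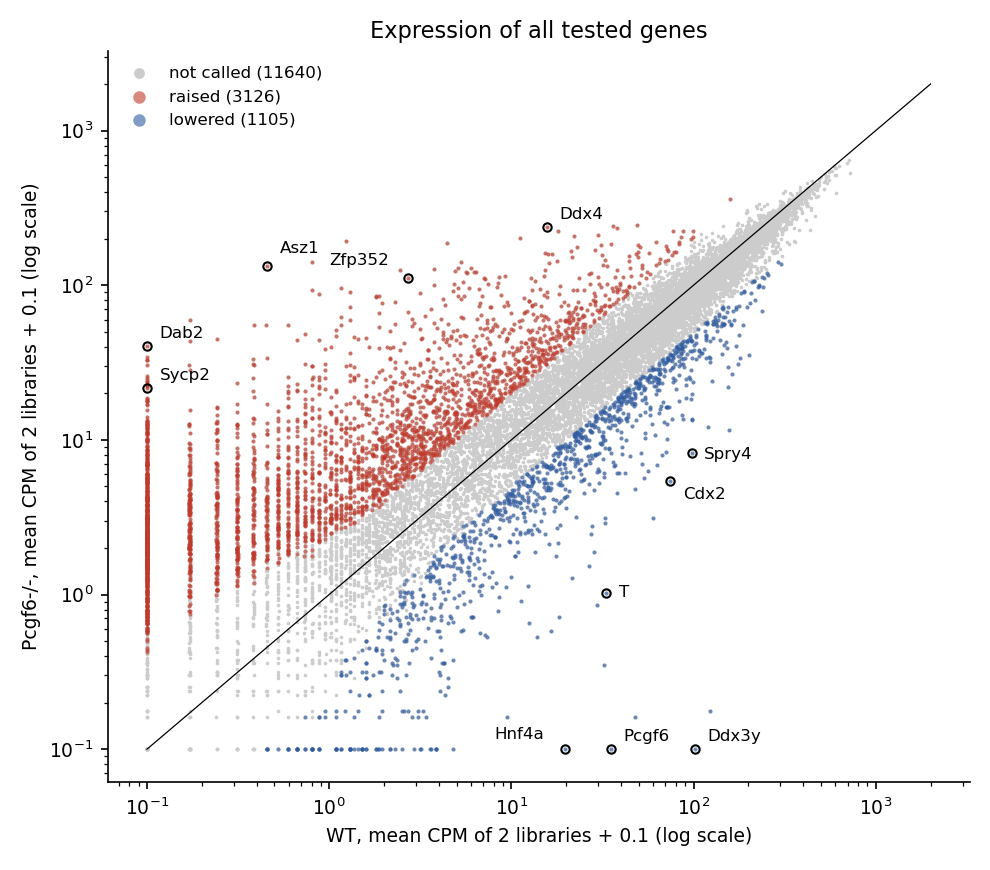
Mean CPM of the 2 Pcgf6-/- libraries against mean CPM of the 2 wild-type libraries for each of the 15871 genes tested, on log axes with 0.1 added. Red points are the 3126 raised and blue points the 1105 lowered genes; raised genes crowd the left edge, where wild-type cells had few or no counts, and Hnf4a, Pcgf6 and Ddx3y lie on the lower edge with no count in Pcgf6-/- cells.

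Germ cell genes rose in number, also outside a short list of well-known targets. A list of 22 germline genes used in an earlier look at these data had 20 members tested, of which 19 rose, with a median log2 fold change of 3.43. That list was chosen on these samples and is not independent evidence of its direction. Outside it, 58 further members of the meiotic, piRNA and germ cell lists were tested, of 72 listed, and 25 rose while 2 fell, with a median of 0.73 against 0.03 over all genes. The share raised outside the earlier list was 43.1%, beside 19.7% of all genes. That background pools all levels, while the raised share was 68% under 1 CPM in wild-type cells and 5.16% at 16 to 64 CPM. Lists were not compared with genes of matched level, so a low wild-type level may account for part of a raised share. This limit applies to each list below. The meiotic, piRNA and germ cell lists below also include members of the earlier list. Their counts and medians therefore rest partly on genes chosen on these samples. Sycp1, Smc1b, Stra8, Tex11, Mael, Tdrd1, Tdrkh, Slc25a31, Ddx4 and Taf7l are among these members.

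Meiotic chromosome structure rose at many points. Of 16 tested genes for the meiotic chromosome axis and the synaptonemal complex, of 22 listed, 10 rose and 0 fell, with a median of 1.30. Sycp1, which forms the transverse filaments of the synaptonemal complex, was at 2.28 and 2.11 CPM in wild-type and at 76.7 and 77.9 CPM in Pcgf6-/- libraries (log2 fold change 5.12, SE 0.35; edgeR adjusted p = 1.99e-07). Sycp2, which forms its lateral elements, had no count in wild-type and 20.1 and 22.8 CPM in Pcgf6-/- libraries, at least 101-fold higher. Tex12, a central element protein, went from 3.14 and 4.22 to 53.6 and 60.6 CPM, and Smc1b, a meiotic cohesin, from 3.85 and 4.22 to 55.2 and 65.8 CPM. The groups were far apart for all 4 of these genes.

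Meiotic entry and recombination rose less broadly, at 7 of 20 tested genes, of 23 listed, with 0 lowered and a median of 0.60. Stra8, the gatekeeper of meiotic entry, was at 5.28 and 6.47 CPM in wild-type and at 125 and 134 CPM in Pcgf6-/- libraries (log2 fold change 4.45, SE 0.18). Tex11, an X-linked crossover protein, went from 18.1 and 17.6 to 210 and 236 CPM. Hfm1, a crossover helicase, went from 1.14 and 0.703 to 19.9 and 17.9 CPM. Neither Tex11 nor Hfm1 had a PCGF6 peak near its start.

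The piRNA pathway, which silences transposons in germ cells, had the highest raised share of the 5 germline lists: 16 of 20 tested genes, of 21 listed, with 0 lowered and a median of 3.27. Asz1 (chr6:18000964-18059061) was at 0.713 and 0 CPM in wild-type and at 126 and 141 CPM in Pcgf6-/- libraries (log2 fold change 8.48, SE 0.40; edgeR adjusted p = 1.43e-08). Tdrd1 went from 0.428 and 0.562 to 26.1 and 24.9 CPM, and Tdrkh from 7.13 and 3.23 to 137 and 147 CPM. Both are Tudor-domain proteins that bind PIWI proteins. Mael, which acts in piRNA production, went from 20.1 and 23.9 to 193 and 220 CPM. Henmt1, the methyltransferase that protects the ends of piRNAs, went from 0.855 and 0.703 to 23.7 and 19.7 CPM; it was called by edgeR (adjusted p = 2.51e-05) but not by DESeq2 (adjusted p = 0.0719).

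Germ cell identity genes rose at 13 and fell at 2 of 24 tested, of 30 listed, with a median of 1.84. Slc25a31, the ADP/ATP carrier of male germ cells, was at 3.85 and 4.78 CPM in wild-type and at 180 and 196 CPM in Pcgf6-/- libraries, the largest log2 fold change of the group among genes with a mean of 4 CPM or more (5.43, SE 0.24). Ddx4, the germ cell RNA helicase, went from 16.1 and 15.2 to 224 and 249 CPM. Taf7l, a testis form of a TFIID subunit, went from 6.99 and 4.5 to 92 and 99.7 CPM, and Boll, an RNA-binding protein of meiotic germ cells, from 3.28 and 2.95 to 45 and 45.6 CPM. The 5 germline lists and the earlier list together, without X-linked testis genes, had 93 members tested, of 134 listed, and 53 rose while 2 fell.

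Late male germ cell genes were mostly too low to test. Of 40 listed spermatid and sperm genes 15 passed the filter, and 9 of those rose while 0 fell, with a median of 1.18. Members near 0 in wild-type cells passed only through a library in which they were higher. Without the filter 11 of 35 rose and 0 fell, with a median of 0.83. Cox7b2, a cytochrome oxidase subunit, went from 6.13 and 7.45 to 47.2 and 48.6 CPM. Cypt3 went from 0.285 and 0.984 to 13.8 and 11.8 CPM. Ddx25, a germ cell helicase, went from 11.7 and 12.9 to 39.9 and 35 CPM, and Ldhc, the testis lactate dehydrogenase, from 16.1 and 14.5 to 33.8 and 32.1 CPM. Genes of the axoneme and motile cilium had no common direction, with 5 raised and 4 lowered of 21 tested, of 30 listed, and a median of -0.19 (3 raised and 8 lowered under offsets that follow the level). These shares were 23.8% raised and 19% lowered, beside 19.7% and 6.96% of all genes. Spag16, of the central pair of the axoneme, went from 0.428 and 0 to 7.08 and 8.72 CPM, a count ratio of 36.8 with a 95% counting interval of 12.3 to 181. Ccdc113 rose from 5.56 and 4.36 to 12.8 and 12.8 CPM. Tekt2 fell from 15.1 and 10.3 to 5.84 and 3.98 CPM and Ccdc114, of the dynein docking complex, from 29.2 and 28.1 to 12.9 and 15.1 CPM; both of these calls were lost without 1 of the Pcgf6-/- libraries (log2 fold changes of -1.11 and -0.92).

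**Figure D2:**
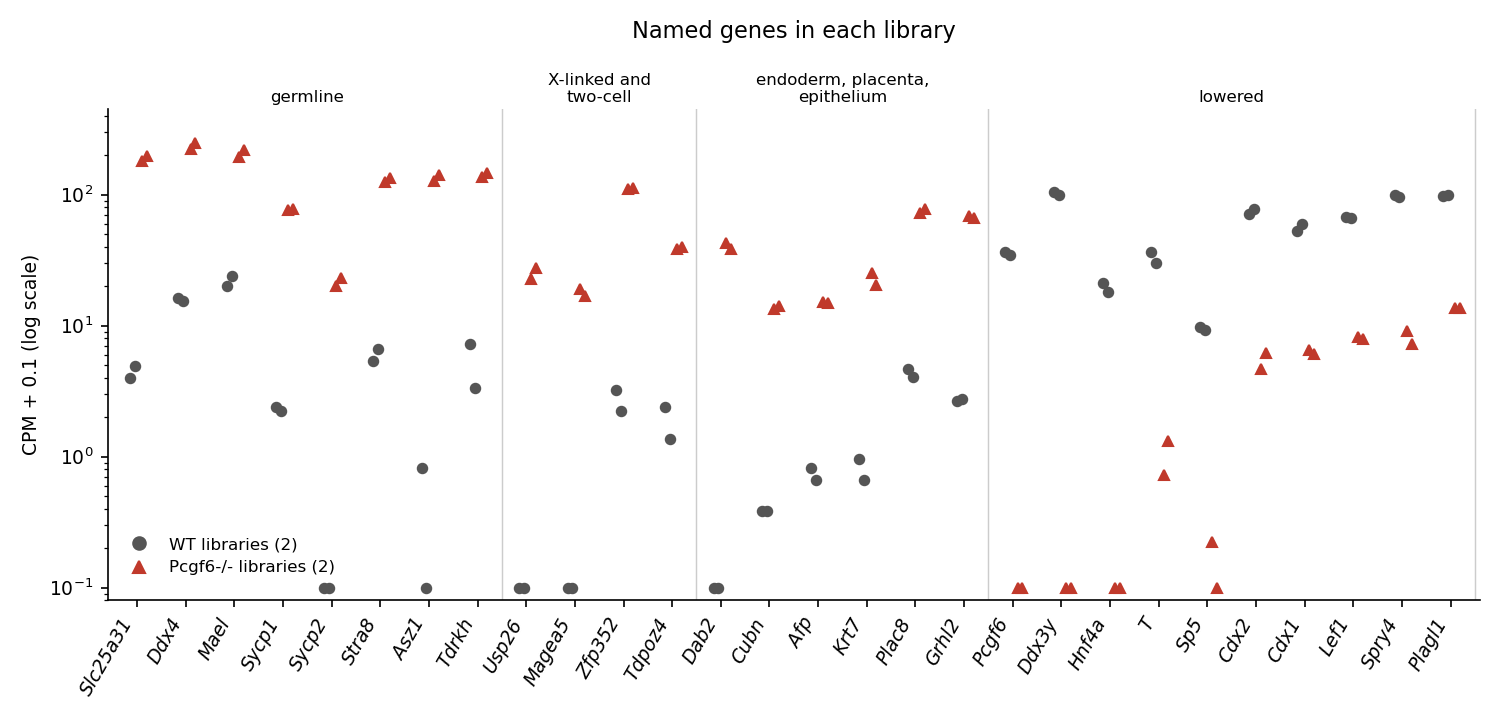
CPM in each library for named genes, on a log axis with 0.1 added; circles are the 2 wild-type and triangles the 2 Pcgf6-/- libraries, and points at the bottom are 0. The 2 lines do not overlap for any gene shown: Asz1 lay at 0.713 and 0 CPM in wild-type and at 126 and 141 CPM in Pcgf6-/- libraries, and Lef1 at 67.2 and 66.1 against 8.08 and 7.8 CPM.

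Testis-expressed X-linked genes and genes of the early embryo also rose. Of 28 tested X-linked testis genes, mostly of the Mage and Xlr families, 24 rose and 0 fell, with a median of 3.98, and 0 of the 28 had a PCGF6 peak near the start. Usp26, a testis deubiquitinase, had no count in wild-type and 22.4 and 27.5 CPM in Pcgf6-/- libraries, at least 118-fold higher. Magea5 was at least 83.7-fold, Magea2 at least 62.7-fold and Magea6 at least 40.2-fold higher, each from no count in wild-type; the call of Magea6 was not made by DESeq2 (adjusted p = 0.303). Of 23 tested genes of the 2-cell-like state, a rare state of cultured embryonic stem cells with transcripts of the 2-cell embryo, 22 rose and 0 fell, with a median of 2.53. Of those raised, 15 were unbound and 7 could not be placed in the annotation, so their binding was not assessed. Zfp352 (chr4:89885511-89892393) went from 3.14 and 2.11 to 111 and 112 CPM (log2 fold change 5.40, SE 0.32). Tdpoz2 went from 0.285 and 0.141 to 14.3 and 10.6 CPM, Tdpoz4 from 2.28 and 1.26 to 38.4 and 39.8 CPM, and Usp17ld from 0.428 and 0.843 to 18.6 and 17.7 CPM. The Mage, Xlr, Tdpoz and Usp17l genes have near-identical copies, and how reads shared between copies were counted is not given in the sources used here, so the values of single members are uncertain.

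Few naive pluripotency genes were called. Of 25 tested, 1 rose and 1 fell, with a median of -0.07: Dppa3, which is also a germ cell gene, went from 24.5 and 25.7 to 90.7 and 96.5 CPM, and Nr0b1 fell from 158 and 153 to 60.8 and 56.1 CPM. Formative and primed genes leaned down, with 5 lowered and 3 raised of 13 tested and a median of -0.98. That is 38.5% lowered and 23.1% raised, beside 6.96% and 19.7% of all genes. Lef1, a Wnt-responsive transcription factor, fell from 67.2 and 66.1 to 8.08 and 7.8 CPM (log2 fold change -3.07, SE 0.14). Etv4 fell from 109 and 118 to 40.9 and 36.4 CPM. The de novo DNA methyltransferases moved apart: Dnmt3b fell from 149 and 156 to 71.8 and 62.9 CPM, and Dnmt3a rose from 35.2 and 36.5 to 79.2 and 72.8 CPM. The surface protein gene Cd24a rose from 86.4 and 85 to 191 and 218 CPM.

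Of 23 tested genes of primitive and visceral endoderm, 13 rose, 1 fell and 9 were not called, with a median of 2.40 (9 raised and 2 lowered under offsets that follow the level). Dab2, an endocytic adaptor of this tissue, had no count in wild-type and 42.4 and 38.4 CPM in Pcgf6-/- libraries, at least 190-fold higher (edgeR adjusted p = 2.13e-07). Cubn, an endocytic receptor that works with DAB2, went from 0.285 and 0.281 to 13.4 and 13.9 CPM. Afp, the fetal counterpart of albumin, went from 0.713 and 0.562 to 15 and 14.7 CPM. The lowered gene was Hnf4a, a transcription factor of visceral endoderm, which went from 21.2 and 17.9 CPM to no count, at least 95-fold lower. Hnf4a overlaps a gene on the other strand, and whether strand was used in counting is not given in the sources used here. Genes overlapped in this way also include 1300015D01Rik, 4632428N05Rik, Ankrd37, Cbx1, Ctcfl, Hoxa7, Kdm2b, L3mbtl2, Ltbp2, Mid1, Nefm, Patl2, Plekhg4, Psmb9, Tagln and Timp3, so their values are uncertain in that respect.

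Trophoblast genes also rose more often than they fell, at 10 against 2 of 22 tested, with a median of 1.02. Krt7, a keratin of trophoblast, went from 0.855 and 0.562 to 25.1 and 20.2 CPM. Esx1, an X-linked placental homeobox gene, went from 0.285 and 0.843 to 14.3 and 12.1 CPM, Gcm1, which drives labyrinth formation, from 1.57 and 0.422 to 20.4 and 20 CPM, and Plac8 from 4.56 and 3.94 to 71.8 and 78 CPM. Cdx2, a master regulator of trophectoderm, moved the other way, from 71 and 77.7 to 4.6 and 6.12 CPM (log2 fold change -3.81, SE 0.18). The list name therefore does not describe a common direction of its members.

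Cytoskeletal, junctional and matrix genes were raised in part. Of 27 tested extracellular matrix genes 13 rose and 3 fell, with a median of 0.62. Timp3, an inhibitor of metalloproteinases, went from 0.855 and 0.843 to 31.7 and 30 CPM, and Col5a2 from 1.14 and 0.703 to 11.8 and 11 CPM. Col12a1 went from 0.143 and 0.141 to 8.95 and 9.48 CPM, a count ratio of 64.9 with a counting interval of 17.6 to 541. The proteoglycan gene Vcan fell from 22.8 and 19.8 to 0.994 and 1.38 CPM. Of 26 tested epithelial genes 10 rose and 3 fell, with a median of 0.04. Grhl2, a transcription factor of epithelia, went from 2.57 and 2.67 to 68.6 and 66.2 CPM (log2 fold change 4.67, SE 0.25). Cldn7, of tight junctions, went from 3.14 and 1.83 to 21 and 25.2 CPM, the keratin Krt19 from 4.56 and 3.51 to 35.4 and 32.1 CPM, and Pkp2, of desmosomes, from 11.3 and 10.5 to 59.5 and 57.1 CPM.

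The mesenchymal list split by member. Of 14 tested genes 6 rose and 2 fell with a median of 0.75, but 3 rose and 3 fell with a median of -0.11 under offsets that follow the level, so this list has no stable direction. Acta2, smooth muscle actin, went from 0.285 and 0.562 to 14.2 and 11.9 CPM, Thy1 from 1.43 and 1.26 to 12.8 and 11.5 CPM and Tagln from 4.56 and 4.22 to 28.3 and 28.5 CPM. Vim, the mesenchymal intermediate filament, fell from 210 and 222 to 81.3 and 79.4 CPM.

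Neural genes likewise depended on the scaling. Of 11 tested neural progenitor genes 5 rose and 2 fell (median 1.24), against 2 and 2 (median 0.00) under offsets that follow the level. Without the filter on low counts 6 of 23 rose and 3 fell (median 0.00). Of 24 tested neuronal and synaptic genes 8 rose and 5 fell (median 0.11), against 4 and 9 (median -0.55). Nes went from 4.56 and 2.81 to 20.3 and 16.5 CPM, and Syt4, a synaptotagmin of secretory vesicles, from 0.713 and 0.703 to 11.3 and 11.6 CPM. The neurofilament genes moved apart, with Nefh up from 8.27 and 9.28 to 49.3 and 49.7 CPM and Nefm down from 19.5 and 20 to 5.47 and 5.81 CPM.

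Y-linked genes were among the largest losses. Of 6 tested Y-linked genes 5 fell. Ddx3y, an RNA helicase, went from 104 and 99.5 CPM to no count, at least 494-fold lower. Eif2s3y went from 123 and 122 to 0 and 0.153 CPM and Uty, a histone demethylase relative, from 50.2 and 45.1 to 0.124 and 0 CPM. Uba1y went from 60.7 and 58.6 to 3.6 and 2.45 CPM. Whether the clone still holds a Y chromosome was not tested.

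Of 15 tested genes of mesendoderm and the primitive streak 4 fell, 2 rose and 9 were not called, with a median of -0.68. T, the founding T-box gene Brachyury (chr17:8627288-8635361), went from 36.2 and 29.9 to 0.621 and 1.22 CPM (log2 fold change -5.18, SE 0.36). Eomes, a related T-box factor, went from 11.4 and 12.2 to 1.86 and 2.91 CPM, and Cdx1 from 52.8 and 59.3 to 6.46 and 5.97 CPM. Kdr, a receptor for VEGF, rose from 1.28 and 1.41 to 7.58 and 7.65 CPM. Of 18 tested Wnt response genes 6 fell, 4 rose and 8 were not called, with a median of -0.61. That is 33.3% lowered and 22.2% raised, beside 6.96% and 19.7% of all genes. Sp5, a direct Wnt target in many tissues, went from 9.7 and 9.14 to 0.124 and 0 CPM, a count ratio of 137 with a counting interval of 24.2 to 5460. Cdx1, Cdx2 and Lef1, which stand on this list too, fell as given above. A GSK3β inhibitor, which mimics Wnt signalling, was in the medium of both groups.

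Genes that respond to ERK moved in both directions, with 6 lowered and 4 raised of 17 tested and a median of -0.53. The raised share was 23.5% beside 19.7% of all genes, and the lowered share 35.3% beside 6.96%. Spry4, a feedback inhibitor of the pathway, fell from 99.7 and 95.9 to 9.07 and 7.19 CPM (log2 fold change -3.58, SE 0.26). Fos, an immediate early gene, went from 0 and 0.141 to 32.7 and 27.8 CPM, which is 1 count against 445, and Dusp4, an ERK phosphatase, rose from 1.57 and 2.25 to 7.33 and 7.65 CPM. Under offsets that follow the level the list had 4 raised and 4 lowered genes.

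Of 21 tested Hox genes 6 fell and 0 rose, with a median of -0.85, or -0.57 with genes that had no count set at their bound. Hoxa7 went from 11.5 and 10.5 to 2.86 and 1.84 CPM (log2 fold change -2.20, SE 0.34). The direction held under offsets that follow the level, with 10 lowered and 0 raised. Hox genes are classical Polycomb targets, and Hoxa7 kept peaks of RING1B, SUZ12 and H3K27me3 at its start in Pcgf6-/- cells.

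Imprinted genes changed one by one, at 8 raised and 7 lowered of 40 tested (5 and 8 under offsets that follow the level). The raised share of 20% lay near the 19.7% of all genes, and 17.5% fell beside 6.96% of all genes. H19 went from 0.855 and 0.703 to 87.7 and 86.6 CPM (log2 fold change 6.77, SE 0.30) and its neighbour Igf2, which is normally expressed from the opposite parental allele, from 0.57 and 1.12 to 21.6 and 21.1 CPM. Both overlap another annotated gene on the same strand. Magel2 had no count in wild-type and 10.9 and 7.19 CPM in Pcgf6-/- libraries, at least 42.7-fold higher. Plagl1 fell from 97 and 100 to 13.5 and 13.6 CPM. The counts do not separate the alleles.

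Of 25 tested p53 targets and CDK inhibitors 5 (20%) rose, a share near the 19.7% of all genes, and 0 fell, with a median of 0.35; under offsets that follow the level 5 rose and 2 fell. Gadd45g rose from 1.71 and 2.39 to 27.5 and 24 CPM. Cdkn2a, the locus of INK4A and ARF, rose from 5.13 and 6.32 to 15.7 and 13.2 CPM. Pmaip1 (73.9 and 78.6 to 157 and 158 CPM) and Cdkn2b (15.5 and 16.9 to 34.5 and 31.5 CPM) lay at the fold limit and lost the call in some settings. Of 27 tested genes of the amino acid and ATF4 response 8 fell and 3 rose, with a median of -0.34. Chac1 fell from 33.8 and 34.7 to 8.82 and 8.41 CPM and Nupr1 from 94.8 and 94.2 to 25.2 and 25.5 CPM. Ddit4, an mTORC1 inhibitor, rose from 3.14 and 3.65 to 22.6 and 21 CPM, and Atf3 from 1.43 and 1.41 to 9.32 and 8.41 CPM.

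Interferon and antigen presentation genes rose at 7 and fell at 4 of 30 tested with a median of 0.13, and at 2 and 6 with a median of -0.20 under offsets that follow the level. The first 2 counts are shares of 23.3% and 13.3%, beside 19.7% and 6.96% of all genes. Ddx58, the RNA sensor RIG-I, fell from 212 and 192 to 32.4 and 37.8 CPM (log2 fold change -2.53, SE 0.16), and Oas2 fell from 10.1 and 8.15 to 4.35 and 2.29 CPM. The class I gene H2-K1 rose from 20.5 and 19.3 to 60.9 and 56.6 CPM and the immunoproteasome subunit Psmb9 from 4.85 and 4.64 to 15.2 and 14.1 CPM.

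Housekeeping functions were not called. No gene passed among 45 of oxidative phosphorylation, 30 of ribosome biogenesis, 30 of cell division, 24 of cholesterol synthesis and 11 of PRC2, with medians from -0.15 to -0.01. Of these 140 genes, 14 had an unadjusted p below 0.05 by edgeR and 16 by DESeq2, DESeq2 called 0 at the same limits, and 8 passed the adjusted p alone by either tool. Glycolysis and hypoxia genes had 1 raised and 2 lowered of 28. Car9, a hypoxia target, fell from 10.1 and 8.29 to 0.497 and 1.53 CPM, Pdk1 fell from 123 and 123 to 44 and 42.7 CPM, and Ankrd37 rose from 16.3 and 16 to 37.7 and 38.7 CPM. Lysosomal genes had 1 raised and 2 lowered of 30, with Lipa, the acid lipase, up from 12.5 and 14.2 to 76.4 and 74 CPM and Tpp1 down from 118 and 115 to 48.1 and 46.2 CPM. Genes of DNA methylation and heterochromatin had 2 raised and 2 lowered of 26, and Uhrf2 rose from 15.3 and 13.9 to 34.5 and 37.6 CPM.

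**Figure D3:**
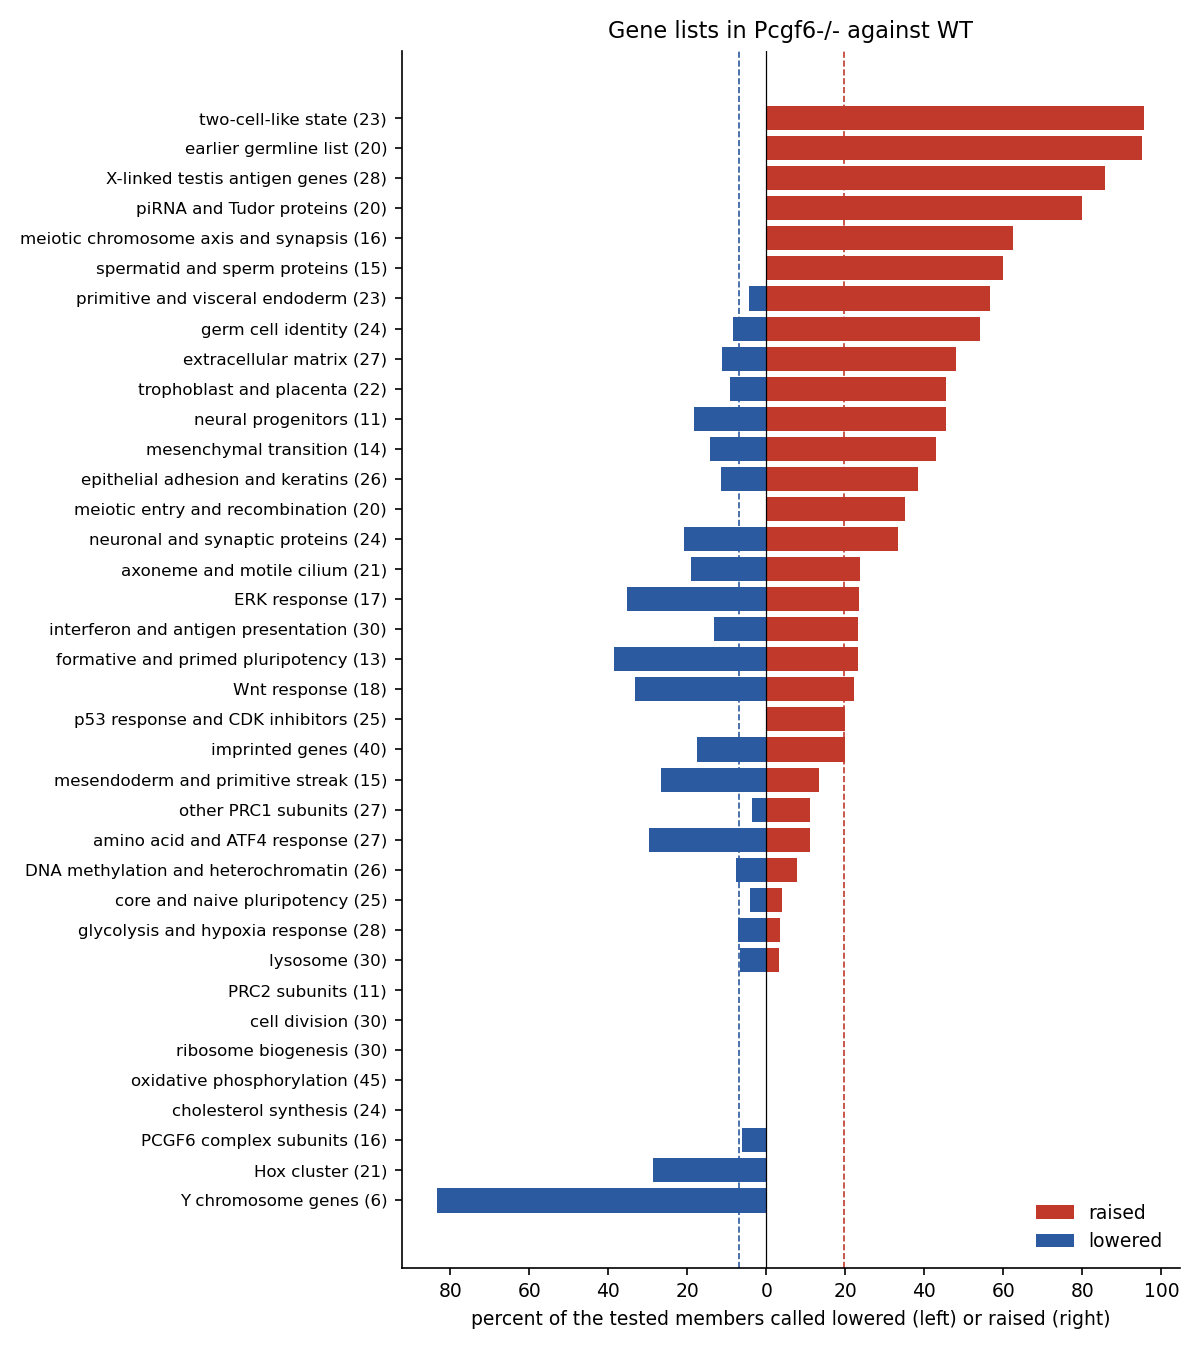
Percent of the tested members of each gene list that rose (bars to the right) and fell (bars to the left) in Pcgf6-/- cells, with the number tested in parentheses and dashed lines at the shares over all genes (19.7% raised, 6.96% lowered). The 2-cell-like list had 95.7% and the X-linked testis list 85.7% raised, and the Y-linked list had 83.3% lowered.

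The partners of PCGF6 stayed expressed. Among 16 subunit genes of its complex, Pcgf6 was the only called one. Mga came closest: it had 226 and 216 CPM in wild-type and 112 and 114 CPM in Pcgf6-/- libraries, a log2 fold change of -0.97 (SE 0.16; edgeR adjusted p = 0.000274) just short of the fold limit, and its start carries a PCGF6 peak. E2f6 had 12.8 and 13.6 against 20.9 and 20.2 CPM (log2 fold change 0.63, SE 0.27; edgeR adjusted p = 0.0833). Max (0.07, SE 0.16), L3mbtl2 (-0.13, SE 0.19), Rnf2, which encodes RING1B (-0.03, SE 0.25), and Hdac2 (0.19, SE 0.14) had log2 fold changes near 0. Yaf2 was at 24.2 and 25.4 against 38.9 and 46.2 CPM (0.77, SE 0.17) and Ring1 at 6.56 and 8.43 against 4.23 and 3.52 CPM (-0.94, SE 0.31), and Ring1 was called as lowered under offsets that follow the level.

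Of 27 genes of the other PRC1 forms 3 rose and 1 fell. Scml2, an X-linked germline Polycomb protein, went from 2 and 1.55 to 78 and 90.9 CPM (log2 fold change 5.56, SE 0.35). Pcgf5, a paralogue of Pcgf6, rose from 13 and 10.8 to 40.3 and 44.2 CPM (log2 fold change 1.82, SE 0.23). Scmh1 rose from 11.7 and 12.2 to 27.5 and 27.7 CPM. Bmi1 (0.88, SE 0.21), Pcgf2 (-0.51, SE 0.16), Kdm2b (-0.71, SE 0.16), Cbx7 (-0.94, SE 0.17) and Phc1 (-0.75, SE 0.17) had log2 fold changes below 1 in size with adjusted p between 0.000705 and 0.0193 by edgeR.

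The lists cover a small part of the response. Of the raised genes 77, or 2.46%, stood on a germline or X-linked testis list, 212 stood on any list and 2914 on none. Symbol families gave another view, over the 209 shared symbol stems with at least 10 tested genes. Among members that passed the filter on low counts, the stem with the largest raised share was Rhox, the X-linked reproductive homeobox cluster, with 17 of 18 tested genes raised and a median log2 fold change of 6.38. Xlr followed with 9 of 10, Clec, the C-type lectins, with 10 of 12, Krt, the keratins, with 23 of 30, Hist, the older name of the replication histone genes, with 32 of 48, and Klk, the kallikreins, with 8 of 12. Without the filter the counts were 23 of 29 for Rhox, 9 of 10 for Xlr, 13 of 26 for Clec, 27 of 51 for Krt, 32 of 64 for Hist and 10 of 24 for Klk, so Xlr then led. Under offsets that follow the level, where 12% of all genes rose, 72.2% of Rhox, 90% of Xlr, 25% of Clec, 40% of Krt, 25% of Hist and 25% of Klk genes were raised. Histone reads in poly-A RNA come from the polyadenylated fraction only, and Rhox and histone genes have close copies. No family was lowered as a whole: the largest lowered shares were 4 of 11 for Hsd, 4 of 11 for Lrp and 3 of 10 for Hoxa, and 3 of 10 Dnah genes fell while 6 rose (3 and 3, with a median of -0.09 in place of 1.09, under offsets that follow the level). Irf and Wnt genes each fell at 3 of 11 and rose at 2.

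The X chromosome had the most raised genes by share among the X and autosomes named here. Of 601 tested X-linked genes 207 (34.4%) rose and 23 fell, against 25% of 831 genes on chromosome 1, 25.9% on chromosome 3 and 13.9% on chromosome 17. The X share stayed above that of all genes in each setting tried, from 26.3% against 12% to 35.1% against 19.9%. Among genes at 20 CPM or more in wild-type cells, the median log2 fold change was -0.10 for 281 X-linked genes. On the autosomes it ran from -0.15 to -0.01, so the X did not stand apart at this level. The raised share of X-linked genes was not compared with autosomal genes of matched wild-type level.

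PCGF6 binding divided the changed genes. The wild-type PCGF6 list holds 1868 peaks and the list made with the same antibody in Pcgf6-/- cells still holds 1042, and 479 (25.6%) of the wild-type peaks overlap the latter. A tested gene is called direct here when a wild-type PCGF6 peak outside the knockout list lay within 2.5 kb of an annotated start (937 genes), shared when its only such peaks overlap the knockout list (154 genes), and unbound when it has an annotated start and no such peak (13626 genes). The other 1154 tested genes have no annotated start and are in none of these classes. Within the wild-type list the authors' −log10 q had a median of 16.7 for the overlapping peaks and 9.96 for the others, so the peaks that the direct class leaves out ranked higher. In the knockout list the overlapping peaks had a median of 30. Each list is from 1 sample, so no test over samples was possible for any comparison of peaks.

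Direct genes rose more often and fell less often than unbound genes. Of the direct genes 28.8% (270) rose and 3.74% (35) fell, against 23.4% and 6.49% of the shared and 18.9% (2572) and 7.08% (965) of the unbound genes. The median log2 fold change was 0.29 over direct, 0.06 over shared and 0.01 over unbound genes. Among changed genes 88.5% of direct, 78.3% of shared and 72.7% of unbound genes were raised. Under offsets that follow the level 200 direct genes rose (21.3%) and 68 fell (7.26%), against 24 and 10 shared genes and 1550 (11.4%) and 1537 (11.3%) unbound genes. Read the other way, 10.6% of raised genes with an annotation (306 of 2878), 4.46% of lowered genes (45 of 1010) and 7.41% of tested genes (1091 of 14717) had a PCGF6 peak near a start. Most of the response, in both directions, was therefore at genes without one.

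The difference between direct and unbound genes was largest at genes with some expression in wild-type cells. At 1 to 4 CPM 56.4% of direct and 37.2% of unbound genes rose, at 4 to 16 CPM 40.6% and 21.1%, and at 16 to 64 CPM 14.6% and 4.48%. Below 1 CPM the shares were 70.9% and 67.1%, where the filter on low counts leaves mainly genes that were higher elsewhere. At 64 CPM and above they were 1.06% and 0.316%. Direct raised genes had a higher level before the loss, with a median of 0.684 CPM per kilobase of exon in wild-type cells against 0.288 for unbound raised genes, and reached 3.86 against 2.31 in Pcgf6-/- cells. Their median log2 fold change was smaller, 2.42 against 2.80. Of the direct raised genes 30.7% and of the unbound raised genes 52.4% had less than 1 CPM in wild-type cells.

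**Figure D4:**
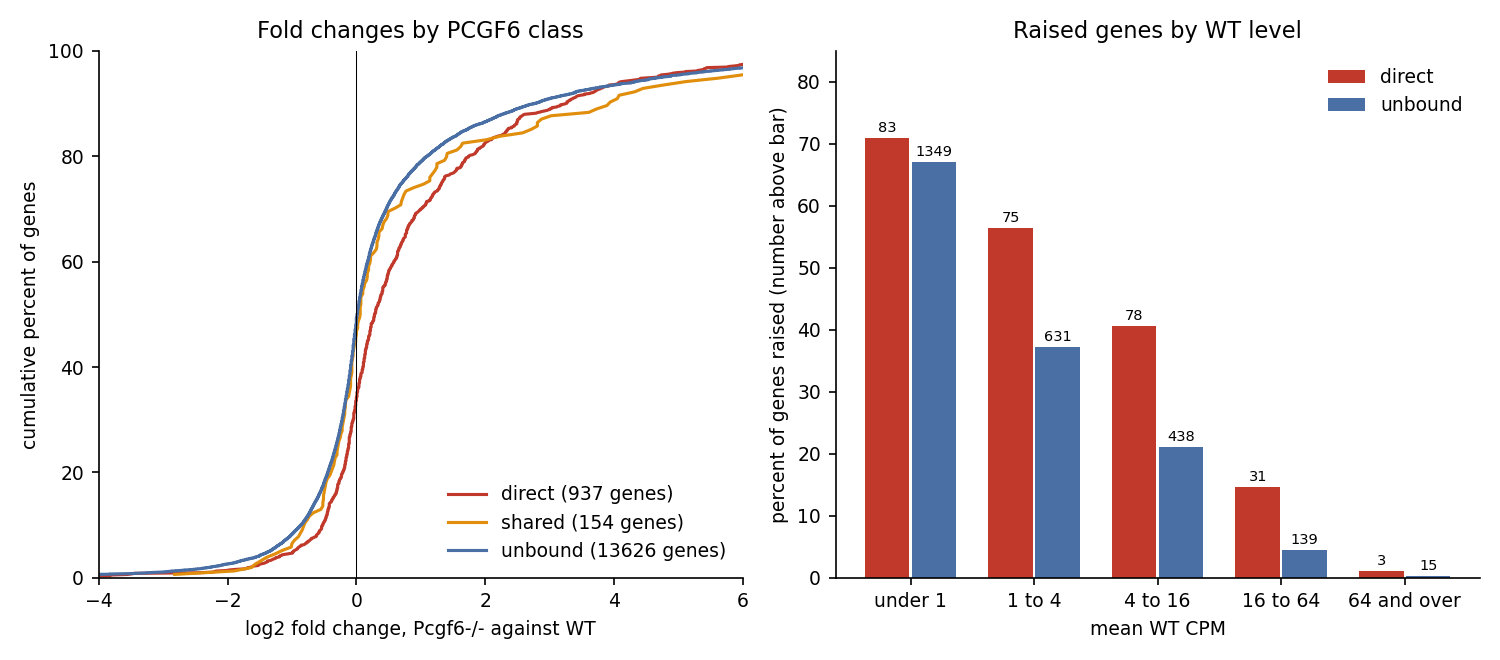
Left, cumulative percent of genes against log2 fold change for direct, shared and unbound genes. Right, percent of direct and of unbound genes that rose, by mean wild-type CPM, with the number raised above each bar; the gap was 56.4% against 37.2% at 1 to 4 CPM and 40.6% against 21.1% at 4 to 16 CPM.

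The strength of the PCGF6 peak ordered the direct genes little. In 4 groups of equal size from the lowest to the highest −log10 q, 29.4%, 23.9%, 29.5% and 32.5% of genes rose. The peak covered the annotated start at 53% of raised, 47.8% of uncalled and 34.3% of lowered direct genes.

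The classes also held different functions, given here as counts with no test. Germline lists held 6.3% of the direct raised genes (17), 27.8% of the shared raised genes (10) and 0.972% of the unbound raised genes (25), beside 2.88%, 7.79% and 0.374% of all tested genes of these classes. These counts include the earlier germline list, which was chosen on these samples and held 10 direct, 7 shared and 2 unbound raised genes. Outside it, the meiotic, piRNA and germ cell lists held 6 direct, 3 shared and 15 unbound raised genes. Of the raised meiotic axis genes 4 were direct, 5 shared and 1 unbound, and the raised piRNA genes were mixed, with 6 direct, 2 shared and 7 unbound. Peaks of shared genes were also listed in Pcgf6-/- cells, so they cannot be told apart from antibody signal that does not need PCGF6. The X-linked testis genes (24) were all unbound, and so were the 15 raised genes of the 2-cell-like state that could be placed in the annotation. Of the raised endoderm genes 4 were direct and 9 unbound, and of the raised matrix genes 1 and 12. The X chromosome held 1.48% of direct raised genes and 7.85% of unbound raised genes, and 0.534% and 4.35% of all direct and unbound genes tested.

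The direct genes with the largest rise and a mean of at least 4 CPM show the class at its extreme. They included Dab2, Ptpn20, Cyp2r1, Agbl3, Slc25a31, Tram1l1 and Smpdl3a, of which Slc25a31 alone is on a germline list. Ptpn20, a tyrosine phosphatase of testis, had no count in wild-type and 32.4 and 33.5 CPM in Pcgf6-/- libraries, at least 155-fold higher. Cyp2r1, a vitamin D 25-hydroxylase, had no count and 20.6 and 24.3 CPM, at least 106-fold higher. Agbl3, a deglutamylating carboxypeptidase, went from 0 and 0.141 to 8.82 and 10.2 CPM, a count ratio of 134 with a counting interval of 23.6 to 5320. Tram1l1 went from 1.43 and 0.422 to 38.9 and 40.5 CPM and Smpdl3a, a sphingomyelinase-like phosphodiesterase, from 0.855 and 0.562 to 32.2 and 27.8 CPM.

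The promoters of 5 of these genes are shown, since each meets a wild-type PCGF6 peak and the RNA was higher without PCGF6. Each is the 200 bases before the annotated start nearest the peak, read 5′ to 3′ on the plus strand of NCBIM37, the build of the deposited coordinates (mm9). Capitals mark a match to the E-box CACGTG or to the E2F half-site GCGGGA on either strand. The windows of Cyp2r1 and Smpdl3a overlap an annotated exon and are not shown.
Dab2, chr15:6336398-6336597, plus strand: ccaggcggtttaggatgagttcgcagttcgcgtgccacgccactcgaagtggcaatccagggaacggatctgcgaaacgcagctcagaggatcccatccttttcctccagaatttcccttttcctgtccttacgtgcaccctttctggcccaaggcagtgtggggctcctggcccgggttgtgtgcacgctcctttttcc
Ptpn20, chr14:34402256-34402455, plus strand: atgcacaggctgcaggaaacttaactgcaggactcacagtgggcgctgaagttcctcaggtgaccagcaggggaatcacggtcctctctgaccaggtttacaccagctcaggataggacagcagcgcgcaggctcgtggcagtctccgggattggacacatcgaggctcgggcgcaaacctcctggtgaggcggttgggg
Agbl3, chr6:34730232-34730431, plus strand: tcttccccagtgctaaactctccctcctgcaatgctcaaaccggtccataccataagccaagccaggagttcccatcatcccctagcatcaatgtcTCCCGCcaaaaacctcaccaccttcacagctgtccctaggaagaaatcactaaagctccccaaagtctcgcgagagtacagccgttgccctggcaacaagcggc
Slc25a31, chr3:40512577-40512776, plus strand: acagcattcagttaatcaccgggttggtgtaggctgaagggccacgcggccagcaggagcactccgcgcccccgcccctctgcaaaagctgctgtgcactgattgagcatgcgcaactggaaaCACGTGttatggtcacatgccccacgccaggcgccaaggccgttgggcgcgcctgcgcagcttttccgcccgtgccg
Tram1l1, chr3:124023755-124023954, plus strand: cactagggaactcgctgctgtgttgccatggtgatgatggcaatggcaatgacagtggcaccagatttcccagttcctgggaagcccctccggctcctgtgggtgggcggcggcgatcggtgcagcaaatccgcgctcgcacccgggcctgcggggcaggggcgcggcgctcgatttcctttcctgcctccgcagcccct

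Slc25a31 has an E-box in this window and Agbl3 an E2F half-site on the minus strand, and the windows of Dab2, Ptpn20 and Tram1l1 hold neither motif. The peak summits lay before the start and inside the printed window at Slc25a31 (38 bases), Agbl3 (50) and Dab2 (55). They lay after the start and outside it at Ptpn20 (71) and Tram1l1 (246), so these 2 windows do not hold the centre of the peak. In wild-type cells RING1B also had a peak at the starts of Dab2, Agbl3, Slc25a31 and Tram1l1, and at none of these in Pcgf6-/- cells. The start of Ptpn20 had neither a RING1B nor an H3K4me3 peak in wild-type cells, and Ptpn20 and Slc25a31 gained H3K4me3 peaks in Pcgf6-/- cells.

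Promoters of direct genes had more CpG than those of unbound raised genes. Over the 301 bases from 250 before to 50 after the start, the median ratio of observed to expected CpG was 0.747 for direct raised, 0.82 for direct uncalled, 0.423 for unbound raised and 0.696 for all tested genes. A ratio below 0.4 was found at 13% of direct raised and 47.6% of unbound raised promoters, against 24.5% of all. The E-box CACGTG was in 15.6% of direct raised, 18.8% of direct uncalled, 6.61% of unbound raised and 9.43% of all promoters. The half-site GCGGGA was in 32.6%, 40.8%, 22.6% and 32% of the same sets, the longer GGCGGGAA, which contains it, in 3.7%, 5.54%, 2.29% and 3.82%, and the T-box half-site GGTGTGA in 5.19%, 3.96%, 4.55% and 3.76%. Each motif was searched on both strands. Within 101 bases centred on the summit, the E-box was in 13% of all wild-type PCGF6 peaks (243 of 1868), in 14.3% of those at direct raised and in 17.8% of those at direct uncalled genes. E-box and E2F matches were no more frequent at direct genes that rose than at direct genes that were not called.

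The shared class held several germline genes among its largest gains. Its largest raised members were Sycp2, Ltbp2, 1300015D01Rik, Ctcfl, Plekhg4, Tdrd1, Sycp1 and Tdrkh. Ctcfl, the testis paralogue of CTCF also known as BORIS, went from 1.14 and 1.26 to 89.7 and 89.8 CPM (log2 fold change 6.19, SE 0.25). Ltbp2, a matrix protein that binds fibrillin, was at least 40.9-fold higher from no count. Among shared genes that fell, Gdf15 went from 21.1 and 24.2 to 4.35 and 1.84 CPM, and Mid1, an X-linked ubiquitin ligase, from 140 and 143 to 55.6 and 52.9 CPM. Keap1, the sensor of oxidative stress, fell from 89 and 90.2 to 44.5 and 36.1 CPM, while Rap1gap and Cacnb3 had log2 fold changes of -1.48 (SE 0.23) and -1.57 (SE 0.28).

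The direct genes that fell most were Cdx2, Tef, Hoxa7, Ssbp4, Patl2, Bach2, Lrrc45 and Emp3. Tef, a PAR-family transcription factor, went from 11.5 and 12.9 to 0.994 and 1.07 CPM (log2 fold change -3.55, SE 0.48), and Patl2, an RNA-binding protein of oocytes, from 126 and 121 to 31.8 and 31.5 CPM. Bach2 fell from 23.1 and 21.6 to 7.7 and 5.66 CPM, and Emp3 from 42.8 and 42.4 to 15.4 and 12.2 CPM. Cdx2 and Hoxa7 had RING1B, SUZ12 and H3K27me3 peaks at their starts in both lines.

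The largest unbound gains were all from no count in wild-type. Herc6, an interferon-inducible ubiquitin ligase, reached 33.2 and 35.5 CPM, at least 162-fold higher, and Oas1e reached 26.6 and 20.8 CPM, at least 112-fold higher. The predicted genes Gm773, Gm9 and Gm44 reached between 25.4 and 32.9 CPM, at least 154-fold, 144-fold and 121-fold higher. 4632428N05Rik and 1700008I05Rik were at least 114-fold and 110-fold higher, and Usp26 is given above. Among unbound genes that fell, Osm, a cytokine of the LIF family, went from 34.1 and 29.9 to 0.497 and 0 CPM, and Casq2, a calcium-binding protein of muscle, from 28.9 and 30.1 to 0.746 and 0.765 CPM.

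RING1B peaks were lost at direct genes whether or not their RNA rose. RING1B had a wild-type peak at the start of 79.3% of direct raised, 65.7% of direct lowered and 48.7% of direct uncalled genes, and a peak in Pcgf6-/- cells at 34.8%, 31.4% and 17.4%. Of the wild-type RING1B peaks, 56.1% at direct raised and 64.9% at direct uncalled genes had no counterpart in Pcgf6-/- cells, against 25% at unbound raised and 29.7% at all tested genes. The whole RING1B list did not shrink, with 5454 peaks in wild-type and 5563 in Pcgf6-/- cells. At the starts of all tested genes, however, RING1B went from 16.9% to 13.6%.

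PRC2 and its mark were also listed at fewer direct starts without PCGF6, whether or not the RNA rose. The PRC2 subunit SUZ12 went from 67.4% to 36.3% of direct raised starts and H3K27me3 from 48.1% to 27.8%, against 31.9% to 26.5% and 23.9% to 22.9% of unbound raised starts. At direct lowered starts SUZ12 went from 54.3% to 28.6% and H3K27me3 from 40% to 25.7%. At direct uncalled starts they went from 27.5% to 18% and from 19.3% to 15.3%. The whole lists grew, from 6473 to 6704 peaks for SUZ12 and from 8063 to 13041 for H3K27me3. Over the starts of all tested genes, however, SUZ12 went from 18.2% to 15.6%, and H3K27me3 from 13.6% to 14.7%. The ubiquitin mark H2AK119ub1 was listed at few starts in either line, 13% and 11.9% of direct raised genes, and its list grew from 1741 to 5287 peaks. Peaks of PCGF2, of another PRC1 form, were at 46.3% and 43.3% of direct raised starts and of PCGF1 at 11.5% and 30.4%. The PCGF1 list grew from 736 to 3228 peaks, so the gain at direct genes cannot be read apart from the length of the list.

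**Figure D5:**
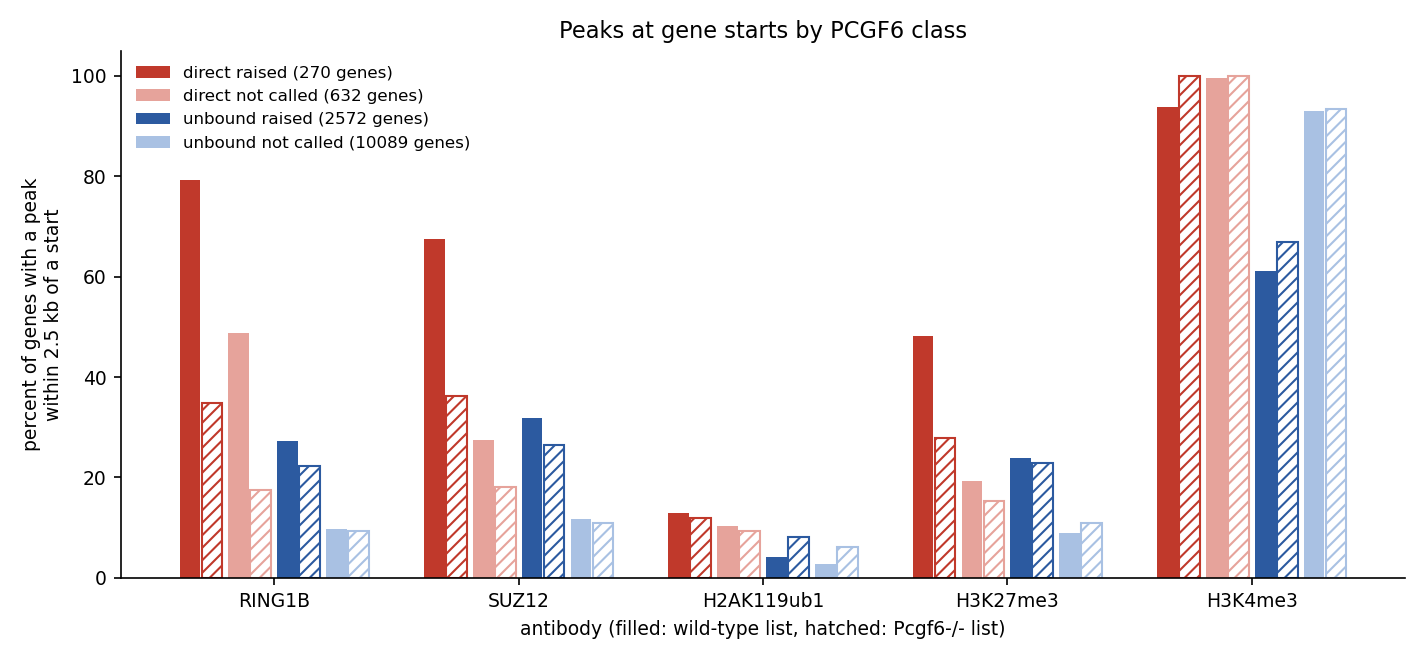
Percent of genes with a peak of each antibody within 2.5 kb of a start, in the wild-type list (filled bars) and the Pcgf6-/- list (hatched bars), for raised and uncalled genes of the direct and unbound classes. RING1B went from 79.3% to 34.8% at direct raised and from 48.7% to 17.4% at direct uncalled genes, and from 27.2% to 22.2% at unbound raised genes.

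Active marks separated the classes too. H3K4me3, a mark of active and poised promoters, was at 93.7% of direct raised starts in wild-type and at 100% in Pcgf6-/- cells, with a peak gained at all 17 that had none. Direct uncalled starts went from 99.5% to 100%, with a peak gained at all 3 that had none. Unbound raised starts went from 61.2% to 67%, and the share gained among those without one (18.3%, 182 starts) lay near that of all tested genes (19%). The whole H3K4me3 list grew from 40094 to 45285 peaks. A start with both RING1B and H3K4me3 in wild-type cells was found for 76.3% of direct raised and 26.6% of unbound raised genes, against 16.7% of all. It was also found for 65.7% of direct lowered and 48.6% of direct uncalled genes, so it was not confined to direct genes that rose. A start with neither was found for 3.33% of direct raised, 0.316% of direct uncalled and 38.2% of unbound raised genes, against 12.1% of all. H3K36me3, a mark of transcribed gene bodies, touched 14.4% of direct raised genes in wild-type and 34.4% in Pcgf6-/- cells, 8.55% and 13.3% of unbound raised genes, and 54.8% and 59.6% of all tested genes. WDR5, read in wild-type cells, was at 54.1% of direct raised, 60.1% of direct uncalled and 3.89% of unbound raised starts, against 12.8% of all.

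The authors' deposited table of the same comparison gave similar calls. At the same limits it holds 2983 raised and 1026 lowered genes, of which 2841 and 999 are called in the same direction here, and 0 genes are called in opposite directions. Its column names carry another clone number than the count table, so whether both describe the same clone is not given in the sources used here.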

How the data were processed

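RNA was read from poly-A RNA with a modified SMART-seq2 protocol, per the labels' protocols. The authors deposited raw read counts per gene, log2 fold changes and adjusted p-values of their own comparison, and MACS2-style peak lists with a −log10 q for each peak, per the file headers, and 1 list stands for each antibody and line. The submitters' processing notes name, without roles, bcl2fastq 2, TopHat2 2.1.1, Bowtie 1.2.2, Picard 1.62, HTSeq 0.7.2, DESeq2 3.7 and MACS2 2.1.1, and the build mm9. Whether duplicates were removed and strand or multimapped reads were counted is not given in the sources used here.

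Counts were tested with edgeR 4.0.16 (R 4.3.3; TMM scaling, filterByExpr, quasi-likelihood test, Benjamini-Hochberg adjustment over all genes tested) in 1 fit of all 14 RNA libraries, with both wild-type libraries summed to 1 sample. A gene is called with an adjusted p below 0.05 and an absolute log2 fold change of at least 1. The standard error is the fold change over the root of F. A fold against a group with no count uses 3 counts over that group's libraries as the floor. Counts of this comparison were simulated (14700 genes), with the changed genes drawn only from those with a mean of at least 4 CPM. The test recovered 94 of 100 genes changed by a log2 fold of 1.5 and 99 of 100 changed by 3, and called 4 unchanged genes. Recovery of genes with a lower mean was not tested. Of the table's 23377 symbols, 21001 matched the annotation of NCBIM37. DESeq2 1.42.0 was an alternative, and the spike-in reads were not used.

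Named genes were Pcgf6, up to 4 called members of each list by size of change, the 8 largest changes per class and direction, and all subunits of PRC1 complexes. Apart from the subunits, each needed a mean of at least 4 CPM and libraries that do not overlap. Some genes that meet this rule are not reported here. The comparison, lists and tests were chosen with earlier results of these data known. Stem families were letters before the first digit. Columns of per-sample values without a sample numbered 0.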

Additional observations from a re-analysis of the deposited data

How the results depend on the processing

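Offsets that follow the level of expression gave 1906 raised and 1798 lowered genes. With no fold minimum 2252 genes fell, and 353 fell by 2 or more on the log2 scale. Leaving out each library in turn gave 2526 to 2918 raised and 835 to 1035 lowered genes.

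The share of raised genes bound by PCGF6 was 12.6% with offsets that follow the level, 11.5% with DESeq2, 9.85% without the filter on low counts, 9.83% at a log2 fold change of 2 or more, 9.59% within 1000 and 11.2% within 5000 bases of a start, 6.12% with peaks at a −log10 q of 10 or more, 9.38% with peaks outside the knockout list, and 10.8% to 11.5% without 1 library. The share of lowered genes bound was 3.41% at a log2 fold change of 2 or more, 3.66% within 1000 and 5.45% within 5000 bases, 2.38% at the stricter q, 3.47% outside the knockout list, and 4.02% to 4.86% without 1 library. The raised share bound lay above the lowered share bound in each setting run.

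The median log2 fold change of direct genes was 0.33 with RLE size factors and with DESeq2, 0.24 with offsets that follow the level, 0.26 without the filter, 0.27 within 5000 bases and 0.27 to 0.30 without 1 library. The replicate numbers share no stated culture, and the deviations of same-numbered Pcgf6-/- and wild-type libraries had a correlation of 0.0316. With the same numbers in the other 5 lines it ran from -0.286 to 0.274. With the replicate number as a block, 3018 genes rose and 1119 fell, 10.7% of raised and 4.32% of lowered genes were bound, and the direct median was 0.28.

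Of 138 called named genes 129 kept the call in every setting and 0 reversed. The exceptions included Henmt1, Tekt2, Ccdc114, Magea6, Pmaip1, Cdkn2b, Oas2 and Ttc7. The cause of these shifts was not tested.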
